A study of Mus musculus with 6 samples.

Results

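Netrins are secreted guidance proteins related to laminins, and they steer growing axons, migrating cells and endothelial sprouts. Dcc is the receptor classically linked to attraction by netrin-1, and the 4 Unc5 receptors to repulsion and, when no ligand is bound, to cell death. Netrin-Gs are relatives held in the membrane by a lipid anchor, which bind the NGL synaptic adhesion proteins instead of Dcc or Unc5. In the adult brain Unc5a, Unc5c, Unc5d, Dcc and both netrin-Gs are best known from neurons, and Unc5b also from the endothelium of growing vessels.

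The 9 genes described are 2 netrins (Ntn1 and Ntn4), 2 netrin-Gs (Ntng1 and Ntng2), the 4 Unc5 receptors (Unc5a, Unc5b, Unc5c and Unc5d) and Dcc, of 22086 genes counted. They were chosen by name as a family, with the counts of the same libraries and the genotype result for Unc5b already known, and the study itself singled out Unc5b from this contrast. Fold changes and p-values given for the family therefore describe these libraries and are no independent evidence. A gene's value is the count of 1 transcript, the one counted most over the 6 libraries of both genotypes together.

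Ribosome-bound mRNA was recovered by TRAP, a pull-down of ribosomes carrying eGFP-tagged L10a, from whole hippocampi at 6 weeks of age, and 3 libraries were made for each genotype, Cx43FL and Cx43KO. All mice carried the tagged ribosomal protein under the astrocyte promoter Aldh1l1 (tg:Aldh1L1-RPL10aGFP) and floxed alleles of Gja1, the gene of the gap junction protein Cx43. Cx43FL were littermates without Cre, and Cx43KO also carried Cre under a GFAP promoter, which is active in astrocytes and can be active in neural progenitors. The labels do not tie libraries to animals, so p-values measure only the spread between these libraries. The comparison asked how astrocytes without Cx43 differ in the mRNAs they translate. The libraries held 33423491 to 77030398 counts on transcripts. On the 22086 genes they ranged from 14787303 to 15391214 in Cx43FL and from 16056347 to 34733473 in Cx43KO. A count of 3 thus corresponded to 0.0864 to 0.203 per M counts on genes, a limit of counting alone, because reads copied by PCR are not separate molecules. The labels do not say which libraries were prepared or sequenced together, so such a difference and the genotype cannot be told apart.

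Gja1, the targeted gene, had 1396, 1382 and 1264 counts in Cx43FL and 1405, 2449 and 3079 in the libraries labelled Cx43KO. As CPM, which here are counts per M counts on tested genes after TMM scaling, these were 92.0, 91.7 and 82.3 against 87.2, 98.4 and 95.1. The genotypes overlapped, and the log2 fold change was 0.078 with a standard error of 0.28 (edgeR's quasi-likelihood test, Benjamini-Hochberg adjusted p = 0.949). A lower Gja1 level in the libraries labelled Cx43KO was thus not seen. In the annotation the second exon of Gja1 holds 2882 of the 3071 bases of the counted transcript and all 1146 coding bases. A loss of that whole exon from most of the mRNA would lower these counts. A loss of the 1146 coding bases alone would lower them too, though less, as untranslated bases would still be counted. The study tested Cre activity in its mice by beta-galactosidase activity. The counts thus did not show the deletion that the label names, and they do not show which bases were covered. Genotype names below are those of the labels. Summed over 10 astrocyte markers, the level was 27545 to 31207 CPM in Cx43FL. In Cx43KO the sum was 13521 in replicate 1, 26275 in replicate 2 and 37714 in replicate 3. Summed over 12 neuron markers it was 2269 to 2790 CPM in Cx43FL against 5714, 2707 and 4091 in Cx43KO. Cx43KO replicate 1 stood apart in both sums, and on the first principal component, with 41.0% of the variance, it lay at 123.4 while the other libraries lay between -50.7 and -0.42. All pairs of libraries differed by more than sampling noise (chi-square per degree of freedom of 33.7 or more).

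Of the 9 genes, 6 had an entry in RefSeq's table of start sites for the same build (GRCm38.p6), namely Ntn4, Ntng1, Ntng2, Unc5a, Unc5b and Unc5c. The 250 bases before the start are shown for Unc5a and Unc5b, which counted higher in every Cx43KO library, and for Ntn4, the only one of the 9 genes with a negative fold change. In the GENCODE annotation none of these 3 windows has a base on an exon of the counted transcript, Ntn4-201 for example starting at 93641049, the base after its window. The bounds of Ntn4 over all its transcripts begin earlier, at 93640681, so its window lies inside the gene. Overlap with exons of other transcripts was not tested. They lie at chr13:54949161-54949410 on the plus strand, chr10:60831582-60831831 on the minus strand and chr10:93640799-93641048 on the plus strand. Capitals mark the GC box, GGGCGG or its reverse complement CCGCCC, the letters bound by factors of the Sp family.
Unc5a: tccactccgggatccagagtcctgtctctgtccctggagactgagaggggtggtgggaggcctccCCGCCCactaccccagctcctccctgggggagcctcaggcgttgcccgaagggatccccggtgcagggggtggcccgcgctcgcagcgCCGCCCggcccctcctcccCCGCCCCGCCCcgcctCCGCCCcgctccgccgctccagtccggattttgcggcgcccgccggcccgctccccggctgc
Unc5b: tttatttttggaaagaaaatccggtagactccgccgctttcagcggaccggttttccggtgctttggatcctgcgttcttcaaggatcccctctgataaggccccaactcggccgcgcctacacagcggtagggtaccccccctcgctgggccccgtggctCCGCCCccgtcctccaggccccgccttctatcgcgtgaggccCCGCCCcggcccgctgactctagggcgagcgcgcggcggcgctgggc
Ntn4: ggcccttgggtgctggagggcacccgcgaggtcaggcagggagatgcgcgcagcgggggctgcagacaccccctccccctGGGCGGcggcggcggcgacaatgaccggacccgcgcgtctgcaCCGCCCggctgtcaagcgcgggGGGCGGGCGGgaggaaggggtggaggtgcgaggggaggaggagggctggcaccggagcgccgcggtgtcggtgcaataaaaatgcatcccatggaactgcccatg
The window of Unc5a held 5 matches of the GC box, that of Unc5b 2 and that of Ntn4 4, where neighbouring matches may share bases. Ntng1 had 1, and the windows of Unc5c and Ntng2 had none. The window of Unc5c has all 250 bases on the first exon of its counted transcript and that of Ntng2 has 26, and neither is shown. Of 32851 windows of the same length, 32.7% held a GC box. TATAAA, searched on both strands, was in none of the 6 windows and in 12.4% of all windows. CCAAT, also on both strands, was in that of Ntng2 alone, and in 33.9% of all windows. The GC content was 76.8% for Unc5a, 66.8% for Unc5b and 73.2% for Ntn4, against a median of 52.4% over all windows. Ntn4 was the only lower gene and its genotypes overlapped, so these letters could not be compared between directions. A match is a description, not a binding site.

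Levels between genes were compared per length, as CPM per kb of the counted transcript. In Cx43FL, Ntn4 came first with 4.62 ± 2.55 (SD, n = 3 libraries). Ntng2 followed with 3.30 ± 1.78 CPM per kb, then Ntng1 with 1.62 ± 0.56 and Unc5a with 1.56 ± 0.42. Ntn4 is a netrin of basement membranes, and the netrin-Gs are best known from axons. Unc5c was at 1.09 ± 0.61 CPM per kb, Unc5d at 0.490 ± 0.053 and Dcc at 0.354 ± 0.085. Ntn1, the founding ligand of the family, was at 0.195 ± 0.203 CPM per kb, and Unc5b was last with 0.161 ± 0.174. Of the 8 neighbouring pairs in this order, 7 overlapped in their library ranges, and the exception was Unc5d above Dcc. All 9 genes were far under Gja1, which had 28.9 ± 1.78 CPM per kb in Cx43FL.

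In Cx43KO the order changed and its spread widened. Unc5c came first with 4.86 ± 2.87 CPM per kb (SD, n = 3 libraries), followed by Ntng1 with 4.71 ± 5.62 and Unc5a with 4.70 ± 2.76. Ntng2 was at 3.88 ± 3.46 CPM per kb, Unc5b at 2.41 ± 1.65 and Ntn4 at 1.95 ± 1.25. Unc5d with 0.861 ± 1.23, Ntn1 with 0.476 ± 0.41 and Dcc with 0.457 ± 0.32 came last. All 8 neighbouring pairs overlapped, so no neighbours in this order could be set apart. Between the orders, Unc5b moved from the last place to the fifth and Ntn4 from the first to the sixth. Both first places are those with 1 transcript counted per gene. A sum over transcripts counts a read once for each transcript it falls on. It therefore raises genes with many similar transcripts and cannot settle the order. With all transcripts summed over the union of exons, Ntng2 with 7.496 CPM per kb was above Ntn4 with 4.58 in Cx43FL. In Cx43KO, Unc5a with 12.1, Ntng2 with 10.2 and Ntng1 with 6.003 were then above Unc5c with 4.87.

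**Figure D1:**
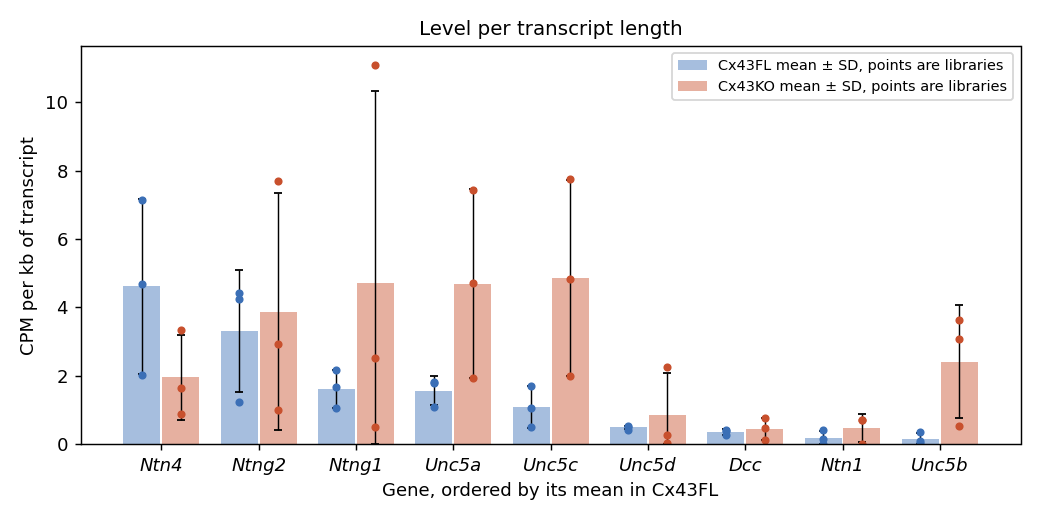
Level of each gene as CPM per kb of its counted transcript, ordered by the Cx43FL mean. Bars are means and lines SD over 3 libraries (points), with lower lines ending at 0. With 1 transcript per gene Ntn4 led in Cx43FL (4.62) and Unc5c in Cx43KO (4.86). With summed transcripts, where a read can count several times, other genes came first. The Cx43KO libraries were spread more widely for 8 of the 9 genes.

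The clearest genotype differences were among the Unc5 receptors. For Unc5b, Unc5c and Unc5a all Cx43KO libraries were above all Cx43FL libraries, and the fitted folds were 14.9, 4.47 and 3.0. Ntn4 was at 0.424 of its Cx43FL level, with groups that overlapped. By the adjusted p of edgeR's quasi-likelihood test, none of the 9 genes passed in either direction, where 0.00738% of 13545 tested genes were called higher and 0% lower. At an unadjusted p under 0.05 by the same test, 3 of 9 were higher and none lower, beside 5.66% higher, 2.67% lower and 8.34% in either direction over all tested genes. By DESeq2 with its prior, the kind of test used in the study, 2 of 9 (Unc5b and Unc5c) were higher and none lower, beside 0.845% higher and 0.127% lower over all genes. Without the prior DESeq2 called the same 2, beside 1% higher and 0.164% lower. All 9 passed the filter on low counts. Groups that did not overlap were found for 3 of 9 genes with Cx43KO above, beside 8.08% of tested genes, and for none with Cx43KO below, beside 7.45%. The median log2 fold change of the 9 genes was 1.29 and 8 were positive, while the median over all tested genes was 0.071. The family median depended on Cx43KO replicate 1. Without it Ntng1 (-0.10), Ntng2 (-0.75), Unc5d (-1.65) and Dcc (-0.23) turned negative. With Ntn4 (-0.90), most of the 9 genes were then below 0.

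Unc5b had 32, 3 and 8 counts in Cx43FL and 291, 530 and 101 in Cx43KO. As CPM these were 2.11, 0.199 and 0.521 in Cx43FL against 18.1, 21.3 and 3.12 in Cx43KO. The genotypes did not overlap, the nearest libraries being Cx43FL replicate 1 and Cx43KO replicate 3. Scaled to the mean library size, the counts were 18.7 ± 20.3 and 281 ± 192 (SD, n = 3 libraries each). edgeR gave a log2 fold change of 3.90 with a standard error of 1.11, at an unadjusted p of 0.00479 and an adjusted p of 0.490 (edgeR). By DESeq2 the adjusted p was 0.0210 with the prior, at a log2 fold change of 2.09, and 0.0100 without it, at 3.92. The exact 2-sided permutation test gave 0.1, the smallest p that 3 against 3 libraries allow. The call thus turned on the test. Without Cx43FL replicate 1, which held most of the Cx43FL counts, the log2 fold change was 5.26, and without Cx43KO replicate 1 it was 3.69. Unc5b lies on chromosome 10 of GRCm38 (chr10:60762593-60831581, minus strand, here and below the bounds of the gene over all its transcripts) and has 1 counted transcript, of 17 exons and 5869 bases, with no other annotated gene on its exons.

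Unc5c is a repulsive netrin receptor of axons. It had 251, 72 and 156 counts in Cx43FL and 1205, 482 and 1505 in Cx43KO, that is 16.5, 4.78 and 10.2 CPM against 74.8, 19.4 and 46.5 CPM. The lowest Cx43KO library, replicate 2, was just above the highest Cx43FL library, replicate 1. In edgeR's fit it differed by 2.16 on the log2 scale, with a standard error of 0.62, at an unadjusted p of 0.00504 and an adjusted p of 0.490. DESeq2 gave an adjusted p of 0.0421 with the prior and 0.0355 without it, and the exact permutation p was 0.1. Its other coding transcripts pointed the same way. Unc5c-201 had 33, 23 and 32 counts in Cx43FL and 143, 84 and 132 in Cx43KO, and Unc5c-204 had 29, 23 and 23 against 143, 73 and 121. Unc5c-205, annotated as a target of nonsense-mediated decay, had 20, 10 and 35 against 204, 91 and 335. For all of them no Cx43KO library reached down to the Cx43FL range per M counts, though a read on a shared exon can count on several transcripts. On chromosome 3 (chr3:141465216-141834924, plus strand), the counted transcript shares 118 bases, or 1.22% of its length, with Gm15688 on the opposite strand, and without stated strand the reads of the 2 cannot be told apart there.

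Unc5a, a receptor known from neurons of the spinal cord and brain, had 111, 65 and 109 counts in Cx43FL and 479, 469 and 250 in Cx43KO. That is 7.31, 4.31 and 7.10 CPM in Cx43FL against 29.7, 18.8 and 7.72 CPM in Cx43KO. The first and second Cx43KO libraries were well above Cx43FL and the third was close to it. edgeR's log2 fold change of 1.59 had a standard error of 0.66, at an unadjusted p of 0.0348 and an adjusted p of 0.571, and neither form of DESeq2 called it. The separation depended on the scaling. It held with TMM, DESeq2's and upper-quartile factors, but per M counts without TMM the lowest Cx43KO library was at 7.20 and the highest Cx43FL library at 7.51. Unc5a-202, which shares nearly all exons with the counted Unc5a-201, had the same counts except in Cx43KO replicate 1 (460 against 479). Unc5a lies on chromosome 13 (chr13:54949411-55006018, plus strand) and shares 34 bases, 0.851% of its length, with Hk3 on the opposite strand.

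Unc5d did not follow the other Unc5 receptors. It had 60, 72 and 74 counts in Cx43FL and 337, 65 and 9 in Cx43KO. Its CPM of 3.95, 4.78 and 4.82 in Cx43FL were close together, and those in Cx43KO, 20.9, 2.61 and 0.278, lay on both sides of them. The log2 fold change was 0.81 with a standard error of 1.19 (edgeR, adjusted p = 0.853), and without Cx43KO replicate 1 it turned to -1.65. With 1 counted transcript of 18 exons (chr8:28646717-29219636, minus strand), it offered no other isoform to compare.

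Dcc, the receptor linked to attraction, had 61, 40 and 66 counts in Cx43FL and 127, 125 and 40 in Cx43KO. These were 4.02, 2.65 and 4.30 CPM against 7.88, 5.02 and 1.23 CPM, with Cx43KO replicate 3 below every Cx43FL library and the other two above. Its log2 fold change of 0.36 had a standard error of 0.96 (edgeR, adjusted p = 0.925), and was -0.23 without Cx43KO replicate 1. The shorter Dcc-201 had 61, 37 and 62 counts in Cx43FL and 116, 103 and 40 in Cx43KO, nearly those of the counted Dcc-202.

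**Figure D2:**
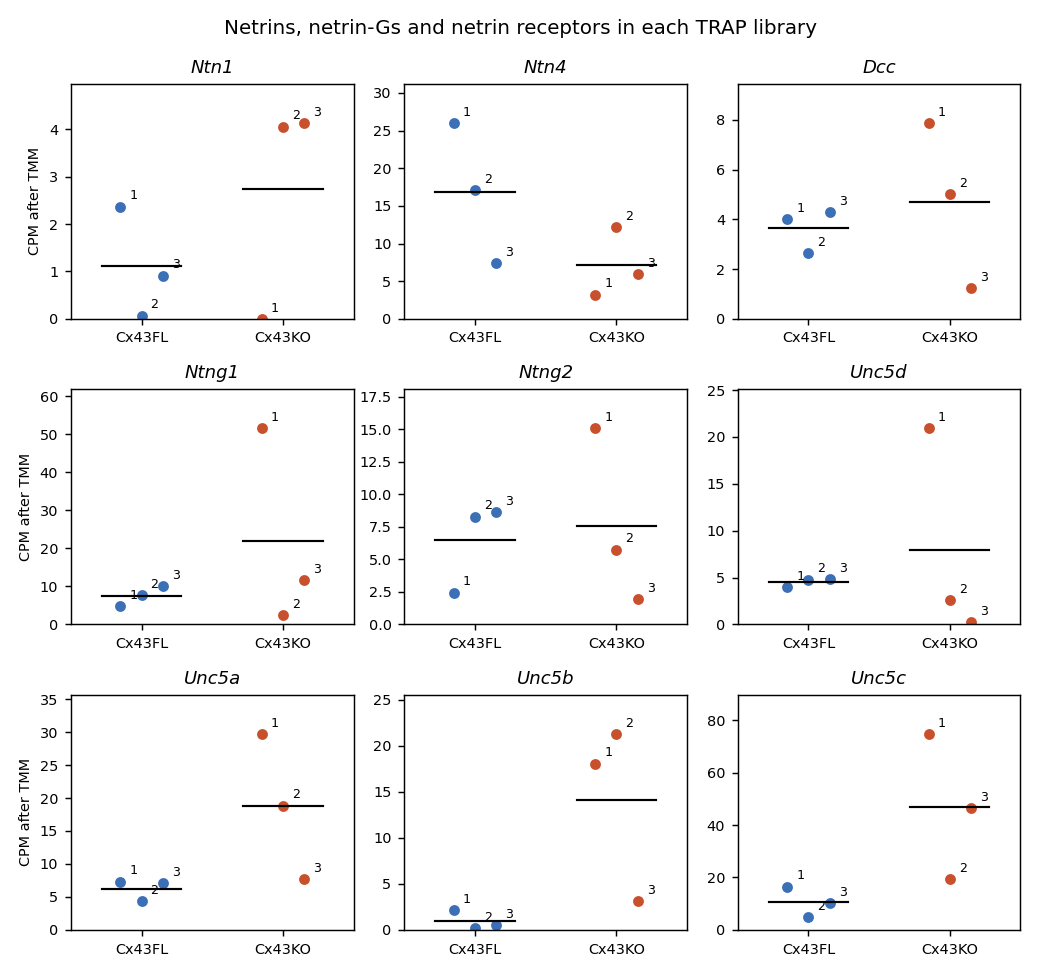
CPM of the 9 genes in each library, numbered by replicate, with the genotype mean as a line and an axis of its own for each gene. Unc5b, Unc5c and Unc5a have all 3 Cx43KO libraries above all Cx43FL libraries, and Ntng1 and Unc5d are far highest in Cx43KO replicate 1 (51.6 and 20.9 CPM).

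Among the ligands, Ntn4 was the one with lower values. It had 395, 257 and 114 counts in Cx43FL and 52, 302 and 194 in Cx43KO, or 26.0, 17.05 and 7.42 CPM against 3.23, 12.1 and 5.99 CPM. The genotypes overlapped, since Cx43KO replicate 2 was above Cx43FL replicate 3. edgeR gave a log2 fold change of -1.24 with a standard error of 0.72, at an unadjusted p of 0.111 and an adjusted p of 0.632. A short second transcript of Ntn4, Ntn4-202 with 2 exons and 582 bases, went the other way, with 3, 2 and 9 counts in Cx43FL and 31, 42 and 76 in Cx43KO. Its log2 fold change in the fit of all transcripts was 2.70 with a standard error of 1.22 (edgeR, unadjusted p = 0.0474, adjusted p = 0.716), against -1.27 with a standard error of 0.69 for Ntn4-201. The difference between the isoforms was not tested. Ntn4 lies at chr10:93640681-93747207 on the plus strand.

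Ntn1, the classical ligand of Dcc and Unc5, was counted very unevenly. It had 36, 1 and 14 counts in Cx43FL and 0, 101 and 134 in Cx43KO, that is 2.37, 0.0663 and 0.912 CPM against 0, 4.06 and 4.14 CPM. Cx43KO replicates 2 and 3 were above every Cx43FL library, whereas replicate 1 had no count, which allows up to 0.187 per M counts on genes. The fold change, 1.29 on the log2 scale, had a standard error of 1.64 (edgeR, adjusted p = 0.826). Ntn1-201 and Ntn1-202 had identical counts in all 6 libraries, so a read was counted on each transcript it fell on. Ntn1 lies at chr11:68209364-68400823 on the minus strand.

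Ntng1, which encodes netrin-G1, the partner of NGL-1, had 74, 117 and 154 counts in Cx43FL and 831, 59 and 380 in Cx43KO. Its CPM were 4.87, 7.76 and 10.03 against 51.6, 2.37 and 11.7, so that Cx43KO held both the highest and the lowest library. The log2 fold change was 1.53 with a standard error of 0.91 (edgeR, adjusted p = 0.635). It was 0.85 when all its transcripts were added up and -0.10 without Cx43KO replicate 1. The counted transcript, Ntng1-211, was unlike the other coding models, of which 8 had 4 counts, 11 to 13 and 23 in Cx43FL, 44 to 45 in Cx43KO replicate 1, and 0 in replicates 2 and 3. A transcript of Ntng1 annotated as a target of nonsense-mediated decay had 41, 109 and 128 counts in Cx43FL and 232, 4 and 238 in Cx43KO. Where in Ntng1 the reads lay was not tested (chr3:109780040-110144011, minus strand).

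Ntng2, which encodes netrin-G2, the partner of NGL-2, had 37, 125 and 133 counts in Cx43FL and 243, 143 and 63 in Cx43KO. As CPM these were 2.44, 8.29 and 8.66 against 15.1, 5.75 and 1.95. The ranges overlapped in full, and the log2 fold change was 0.23 with a standard error of 0.91 (edgeR, adjusted p = 0.955), turning to -0.75 without Cx43KO replicate 1 and to -0.18 without Cx43FL replicate 1. The counted transcript, Ntng2-211, is annotated as a target of nonsense-mediated decay, and it shares 298 bases (15.2%) with 6530402F18Rik on the same strand, so its level is uncertain by those reads. The coding Ntng2-201 had 25, 75 and 115 counts in Cx43FL and 224, 102 and 23 in Cx43KO, with the same pattern over libraries. Ntng2 lies at chr2:29194541-29253005 on the minus strand.

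**Figure D3:**
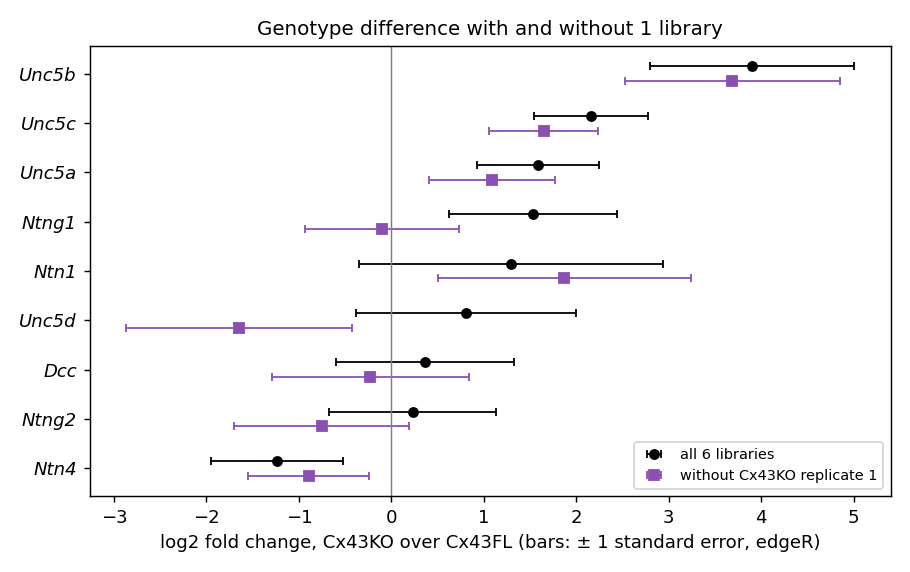
Log2 fold change of Cx43KO over Cx43FL from edgeR with its standard error, for all 6 libraries (black) and without Cx43KO replicate 1 (purple). Unc5b (3.90 and 3.69), Unc5c (2.16 and 1.65) and Unc5a (1.59 and 1.09) stay above 0, while Ntng1, Unc5d, Dcc and Ntng2 cross it.

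The Cx43KO libraries differed from each other in which of the 9 genes were high. In Cx43KO replicate 1, 6 of 9 genes had their highest value of all libraries, 7 were above every Cx43FL library and 2 below. In replicate 2 there were 5 above and 2 below, and in replicate 3 there were 5 above and 4 below. As a log2 ratio to the Cx43FL mean, Unc5b was at 3.92, 4.15 and 1.56 in replicates 1 to 3, Unc5c at 2.93, 1.01 and 2.25 and Unc5a at 2.20, 1.55 and 0.32. Ntng1 was at 2.75, -1.43 and 0.66, and Unc5d at 2.10, -0.68 and -2.68. Ntn1 ran opposite to these with -1.40, 1.79 and 1.81. Only the 3 Unc5 receptors kept 1 direction above 0 in all Cx43KO libraries, and only Ntn4 below, with -2.05, -0.29 and -1.25.

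Markers of other cell types moved with these libraries. Of 12 neuron markers, 11 were above every Cx43FL library in Cx43KO replicate 1, 5 in replicate 2 and 4 in replicate 3, and their median log2 ratios were 1.66, 0.25 and 0.23. Of the 12, 3 (Rbfox3, Gad2 and Syn1) had every Cx43KO library above every Cx43FL library, beside 8.08% of all tested genes. None had every Cx43KO library below. Map2 went the other way, with log2 ratios of -0.13, -0.24 and -0.26 in replicates 1 to 3. By the same ratio Gad2 was at 2.19, 1.06 and 0.82 in replicates 1 to 3, and Syn1 at 1.64, 0.65 and 1.14. Endothelial markers, of interest since endothelium uses Unc5b, summed to 9.75 to 13.4 CPM in Cx43FL and to 24.0, 16.0 and 24.9 CPM in Cx43KO. Of these 10 genes 7 were tested, 6 of them with a fold change above 0, and the median was 1.08 on the log2 scale. Tek had 8, 0 and 0 counts in Cx43FL and 0 in all Cx43KO libraries, and Pecam1 had 4, 13 and 6 against 5, 2 and 12. Cldn5 counts were 19, 2 and 17 against 62, 0 and 70. Slco1a4, with 31, 26 and 37 counts against 144, 116 and 141, was higher in all Cx43KO libraries. Ly6c1, with 25, 29 and 21 counts against 19, 4 and 34, was lower in all of them as CPM. Esam had 0, 16 and 11 counts against 0, 127 and 86, and Emcn 32, 0 and 74 against 6, 137 and 183. Cdh5 had 1, 3 and 3 counts against 11, 4 and 101, Kdr 2, 32 and 14 against 15, 7 and 178, and Flt1 82, 26 and 2 against 125, 0 and 3. The endothelial genes were thus low. Among the 7 tested, only Ly6c1 had a fold change below 0 (-1.04 on the log2 scale, standard error 1.22). Mural markers summed to 35.9 to 44.0 CPM in Cx43FL and to 95.6, 45.7 and 96.6 in Cx43KO, with Kcnj8 at 0 throughout. Oligodendrocyte markers were at 599 to 1021 CPM in Cx43FL and at 2672, 1009 and 619 in Cx43KO. Microglia markers were at 29.0 to 51.3 CPM against 132, 84.0 and 157, and oligodendrocyte precursor markers at 194 to 258 against 197, 191 and 340. Choroid plexus and ependyma markers were at 456 (replicate 2) to 15244 CPM in Cx43FL and at 32753, 26156 and 21955 in Cx43KO. The median log2 ratios of these 5 genes were 2.62, 2.68 and 2.42, and 4 had every Cx43KO library above every Cx43FL library. That held for 4 of 8 tested microglia, 2 of 8 mural, 1 of 7 endothelial, 1 of 9 oligodendrocyte and 1 of 6 precursor markers. In these lists only 1 gene, an endothelial one, had every Cx43KO library below. The part of these markers in the values of the 9 genes was not tested, and in such pooled tissue fewer cells of a type and less RNA per cell cannot be told apart.

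**Figure D4:**
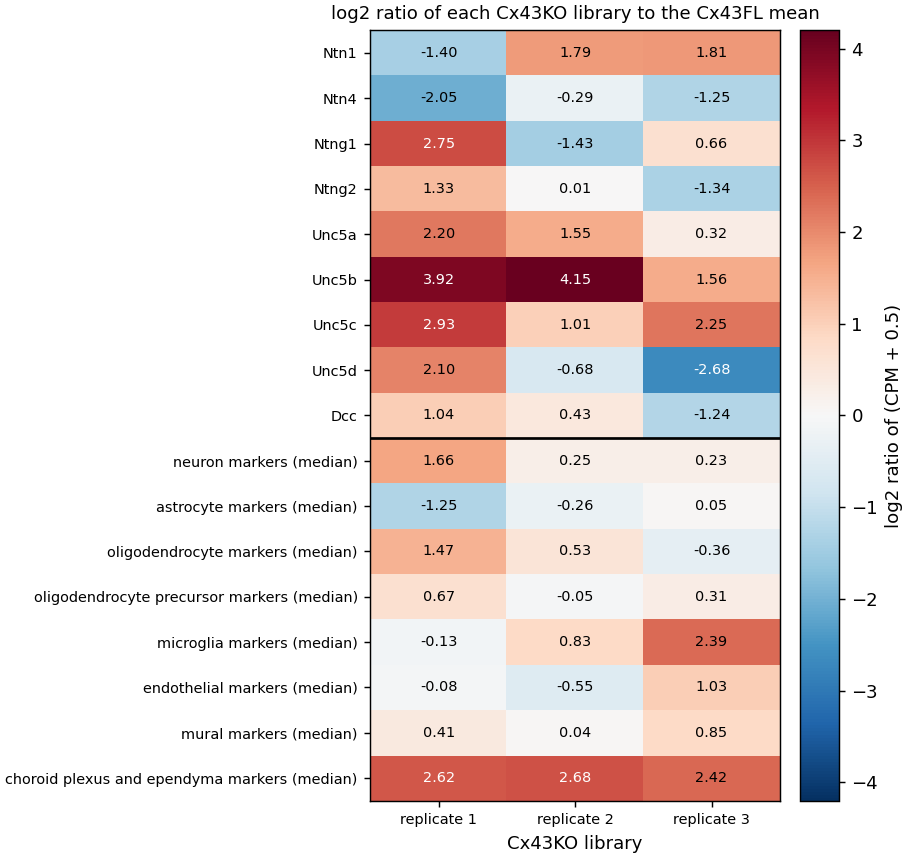
Log2 ratio of CPM plus 0.5 in each Cx43KO library to the Cx43FL mean, for the 9 genes (above the line) and as medians of marker lists (below). Unc5a, Unc5b and Unc5c are positive in all 3 libraries. The neuron median is 1.66 in replicate 1, 0.25 in replicate 2 and 0.23 in replicate 3, and that of choroid plexus and ependyma is 2.62, 2.68 and 2.42.

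Other ligands and receptors of the netrins were counted as a group of 13 genes, of which 11 were tested, Unc5cl being at 0 in all libraries and Ntn5 too low. By edgeR's adjusted p none of them was called, nor by either form of DESeq2. At an unadjusted p under 0.05 by the same test 1 was higher and none lower, and 2 had every Cx43KO library above every Cx43FL library, where the shares over all tested genes were 5.66% and 8.08%. The count of 1 in 11 is near that share. Their log2 fold changes ran from -1.40 for Ntn3 to 2.01 for Mcam, with a median of 0.80, against 0.071 over all tested genes and 0.77 over the neuron markers. Without Cx43KO replicate 1 the median was 0.47. Lrrc4c, which encodes NGL-1, the partner of netrin-G1, had 943, 929 and 982 counts in Cx43FL and 2572, 2214 and 2504 in Cx43KO (edgeR log2 fold change 0.80, standard error 0.35, unadjusted p = 0.0420, adjusted p = 0.592). Its kin Lrrc4b, which encodes NGL-3, had 294, 220 and 224 against 572, 711 and 921 counts, with a log2 fold change of 0.93 and a standard error of 0.43. For both, the Cx43FL libraries were close together and lay below all Cx43KO libraries. Neo1, which encodes neogenin, the relative of Dcc, was at 78.7, 118 and 87.1 CPM in Cx43FL and 104, 112 and 230 CPM in Cx43KO, and its log2 fold change was 0.65 with a standard error of 0.37. Per length Neo1 was at 12.8 ± 2.83 CPM per kb in Cx43FL, beside the 0.354 of Dcc.

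Genes whose products bind Unc5 receptors were 11, of which 10 were tested, Robo4 having 0, 0 and 2 counts in Cx43FL and none in Cx43KO. None was called by edgeR's adjusted p or by DESeq2, 2 were higher at an unadjusted p under 0.05, and 5 had every Cx43KO library above every Cx43FL library (Flrt2, Adgrl2, Pick1, Dapk1 and Maged1), beside 5.66% and 8.08% over all tested genes. The median log2 fold change was 0.68, with a range from -1.16 to 1.53. Flrt2, a ligand of Unc5 receptors, had 593, 393 and 471 counts in Cx43FL and 2839, 1317 and 1545 in Cx43KO (edgeR log2 fold change 1.53, standard error 0.51, unadjusted p = 0.0117, adjusted p = 0.540). Adgrl2, a latrophilin that binds FLRT proteins, had 166, 147 and 149 against 564, 467 and 635 counts, with a log2 fold change of 1.27 and a standard error of 0.51. Both thus had all Cx43FL libraries below all Cx43KO libraries. The Cx43FL group was narrow for Adgrl2 (10.9, 9.75 and 9.70 CPM). It was wider for Flrt2, with 39.1, 26.1 and 30.7 CPM against 176, 52.9 and 47.7 CPM in Cx43KO. Pick1, a scaffold protein, had 148, 125 and 100 counts against 315, 396 and 585, a log2 fold change of 1.12 with a standard error of 0.54. Dapk1, a kinase linked to death signals of unbound Unc5b, had 527, 518 and 528 counts against 1264, 1035 and 1683. As CPM these were 34.7, 34.4 and 34.4 against 78.5, 41.6 and 52.0, a log2 fold change of 0.73 with a standard error of 0.37. Maged1, which binds the inner part of Unc5a, had 1993, 2405 and 2542 counts against 3335, 4967 and 7182, a log2 fold change of 0.46 with a standard error of 0.26. Adgrl1, named with Maged1 for its mean CPM, had a log2 fold change of 0.25 with a standard error of 0.35.

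The signalling genes downstream had a median log2 fold change near the 0.071 of all tested genes. Of 20 genes, all tested, none was called by edgeR or DESeq2, none had an unadjusted p under 0.05 by edgeR and none had groups that did not overlap after TMM scaling. Fyn had every Cx43KO library below every Cx43FL library with upper-quartile factors (118.3 against 120.2) and per M counts on genes (115.5 against 116.6), but not with TMM or DESeq2's factors. The median log2 fold change was 0.037, with 12 of 20 positive and a range from -0.89 to 1.12. Rac1 and Cdc42, the GTPases that netrin receptors act on and the 2 with the highest mean CPM, had log2 fold changes of 0.021 and -0.23 with standard errors of 0.30 and 0.27. The median was 1.29 for the 9 netrin and receptor genes, 0.80 for the other ligands and receptors and 0.68 for the Unc5 binding partners. No test was run between the groups, and without Cx43KO replicate 1 most of the 9 genes were below 0. Marker lists had medians of -0.26 (astrocyte), 0.17 (oligodendrocyte precursor), 0.65 (oligodendrocyte) and 0.77 (neuron). Those of mural, endothelial, microglia and choroid plexus and ependyma markers were 0.88, 1.08, 1.22 and 1.67.

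**Figure D5:**
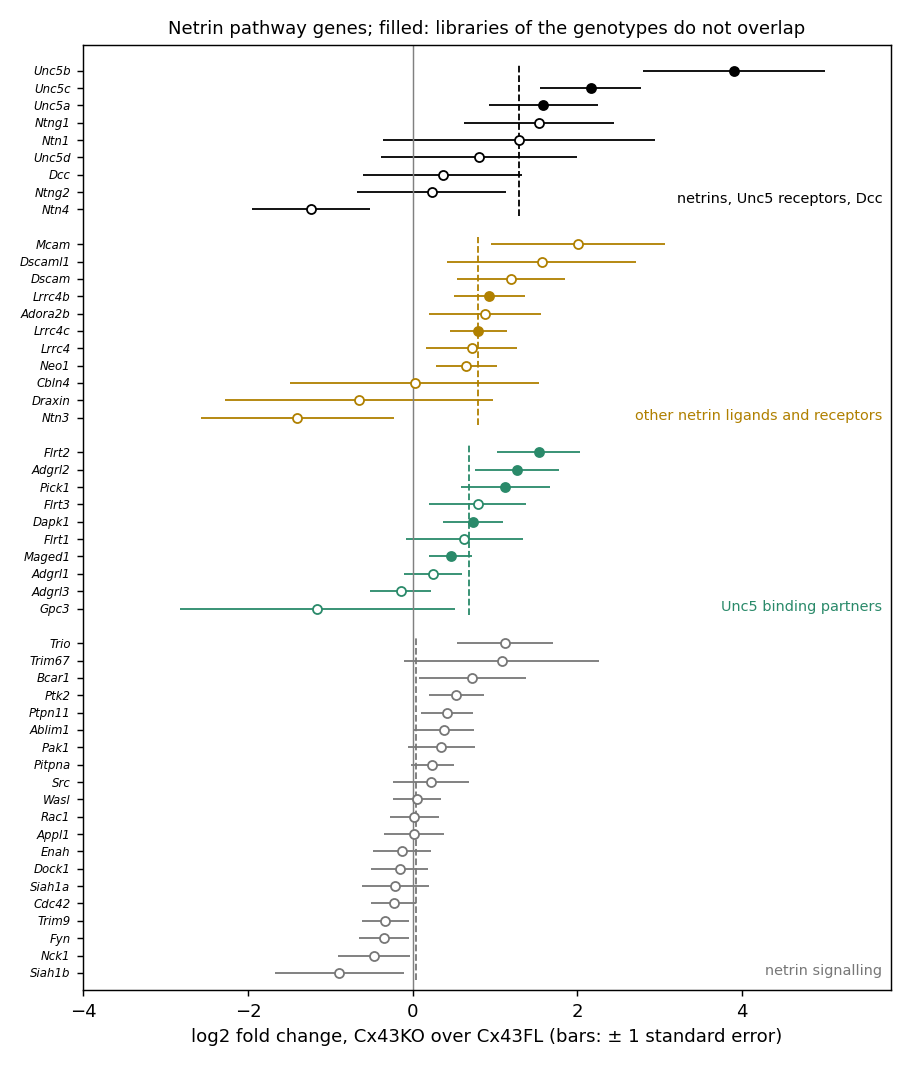
Log2 fold change of Cx43KO over Cx43FL with its standard error for the 9 genes and 3 groups of related genes, dashed lines marking the medians of 1.29, 0.80, 0.68 and 0.037. All 6 libraries were used, and without Cx43KO replicate 1 most of the 9 genes were below 0. Filled points are genes whose genotypes did not overlap, 3 of 9, 2 of 11, 5 of 10 and 0 of 20.

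Likeness over the 6 libraries was measured by Pearson's r of log2 of CPM plus 0.5, leaving out the 9 genes, the related lists and the markers. The genes most like Unc5b were then Gm4951 (0.986), Mrps27 (0.986), Aff3 (0.985), Ddx46 (0.985) and Nipal3 (0.981). Among tested genes outside these lists, 122 had an r over 0.9 with Unc5b, and all points share the same 6 libraries. Gm4951 had 19, 0 and 0 counts in Cx43FL and 110, 334 and 67 in Cx43KO, the order of libraries seen for Unc5b. Ntn4, first of the 9 genes by mean CPM in Cx43FL, was matched most closely by Tomm6 (0.984), Rsbn1l (0.983), Gm21981 (0.982), Syce1l (0.977) and Dusp23 (0.969). These were of 111 genes over 0.9, again outside the lists. Tomm6 and Gm21981 had nearly the same counts in each library, and whether they share reads was not tested. These correlations describe 6 libraries and carry no test.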

How the data were processed

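Polysomal mRNAs of the hippocampus were measured by TRAP and sequencing from 3 libraries of each genotype, Cx43FL and Cx43KO. The authors filtered reads, mapped them with STAR on mm10, counted them with HTSeq 0.5.3 (version from the submitters' processing notes, which also name bcl2fastq 1.8.4) and deposited raw counts on Ensembl transcripts, without normalization. Whether strand was used in counting is not given in the sources used here.

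Of 75466 transcripts, 73157 were matched to GENCODE M21 (GRCm38) and 2309 were not, with 1.60% to 1.78% of the counts. Lengths, exons and gene bounds come from that annotation, which is later than the one counted on, so exon models may differ. The tests had been planned per gene. Of each of the 22086 genes the most counted transcript over 6 libraries was used. The genotype contrast was fitted in R 4.3.3 by edgeR 4.0.16 (TMM, filterByExpr with the genotype as group and its minimum of 10 counts, quasi-likelihood F test, genotype alone). Calls needed a Benjamini-Hochberg adjusted p-value under 0.05 over 13545 tested genes and a mean normalized count over 50 in the higher group. Standard errors are the log2 fold change over the square root of F. Exact 2-sided permutation tests used log2 of CPM plus 0.5. The scripts were tested on simulated data.

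The 9 genes, the related lists and the markers were chosen with earlier results of these data known. Named genes are these 9, Gja1, up to 4 genes of each related list with the smallest unadjusted p among those whose genotypes did not overlap plus the 2 with the highest mean CPM, and markers at 0 or highest. To these were added the 5 genes outside all lists most correlated with Unc5b and with Ntn4. Syn1, Gad2, Rbfox3, Map2, Cdh5, Kdr, Flt1, Ntn3, Mcam, Ntn5, Unc5cl and Robo4 were named after their values were seen, as were the transcripts described. Promoter windows are RefSeq's. Alternatives changed 1 choice at a time. They were scaling by DESeq2's or upper-quartile factors, a filter of 10 counts in every library or none, DESeq2 1.42.0 (with and without a prior), a replicate block, summed or single transcripts, 1 library left out, calls without the mean minimum, and calls by unadjusted p-value. The precision per library follows from the depths given above.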

Additional observations from a re-analysis of the deposited data

How the results depend on the processing

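The genes called higher in Cx43KO were 1 by edgeR, 0 with at least 10 counts in every library or with summed transcripts, 2 with the replicate block, 113 by DESeq2 with its prior, 135 without it, 763 at the unadjusted p and 0 to 11 when 1 library was left out, with 11 without Cx43KO replicate 1 and 0 without any other. Those lower were 0 by edgeR, 17 and 22 by DESeq2 with and without the prior and 358 at the unadjusted p. Of the 9 genes described, 0 were called by edgeR, also without any 1 library, 2 by either form of DESeq2 and 3 at the unadjusted p, where 3 genes of the related lists were called too.

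The log2 fold change of Unc5b was 3.92 by DESeq2 and 2.09 with its prior, both past the threshold, and 3.41 to 5.26 without 1 library. That of Unc5c was 2.16 and 1.64 by DESeq2 and 1.65 to 2.63 without 1 library, and that of Unc5a 1.09 to 1.96. Directions reversed without Cx43KO replicate 1 for Ntng1 (-0.10, range to 2.06 without 1 library), Ntng2 (-0.75, to 0.69), Unc5d (-1.65, to 1.38) and Dcc (-0.23, to 0.82), and without Cx43FL replicate 1 for Ntng2 (-0.18). Ntn1 ranged from 0.73 to 2.46 and Ntn4 from -1.86 to -0.79. At least 10 counts in every library left no value for Ntn1, Unc5b and Unc5d. Of the alternatives for single genes, 121 kept direction and side of the threshold, 7 reversed and 4 passed it. The median of the signalling genes, 0.037, was -0.025 with upper-quartile factors and -0.092 to 0.20 without 1 library, and that of the other ligands and receptors was 0.47 to 0.98. The causes were not tested.

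Deviations from the genotype mean were close to uncorrelated between same-numbered libraries (0.011, -0.004 and -0.055). With 3 libraries per genotype this cannot show whether they share a litter or a preparation, and the labels do not say. With the replicate block Ntng2 was at -0.13 and Unc5d at -0.82, both reversed, while Unc5b was at 3.91, Unc5c at 2.13 and Unc5a at 1.44, and the count of calls moved from 1 to 2.

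With all transcripts summed over the union of exons, levels in CPM per kb were 3.33 for Ntng1, 7.496 for Ntng2, 4.15 for Unc5a and 0.552 for Dcc in Cx43FL, and 10.2 for Ntng2 and 12.1 for Unc5a in Cx43KO, since a read can count on several transcripts. Ntng2 and Unc5a then came first in Cx43FL and Cx43KO. The largest standard errors of the 9 fold changes were those of Ntn1 (1.64), Unc5d (1.19) and Unc5b (1.11).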
